A study of Mus musculus with 6 samples.

Results

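Heat shock proteins, their co-chaperones and the subunits of the cytosolic chaperonin were examined in primary mouse Sertoli cells labelled as UXT knockout (KO) or wild type (WT). Members were chosen by symbol, namely every gene of the deposited table whose symbol starts with Hsp, Dnaj, Bag, Cct, Pfdn, Hsf or Fkbp, without the matrix gene Hspg2, plus Ahsa1, Tcp1, Vbp1, Uri1, Pdrg1 and the R2TP genes Rpap3, Pih1d1, Ruvbl1 and Ruvbl2. This gave 29 genes of the 3257 analysed. The 3 UXT KO libraries came from C57BL/6 cells of knockout animals to which Cre recombinase was delivered by a viral construct. The 3 WT libraries came from wild-type C57BL/6 cells infected with an empty plasmid. All cells were grown in DMEM/F-12, enriched for Sertoli cells by differential plating and infected on 2 occasions. Only the KO cells received Cre, so the loss of UXT and the Cre virus cannot be told apart.

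Chaperones bind unfolded or partly folded proteins and help them reach or regain their native shape. In the cytosol HSP70 works in a cycle with J-domain proteins (HSP40), which deliver substrates, and with nucleotide exchange factors such as HSP110 and BAG proteins, which release them, while HSP90 acts later on kinases and steroid receptors, including the androgen receptor. The ring-shaped chaperonin CCT folds actin and tubulin, which prefoldin hands to it, and the R2TP complex works with HSP90 to assemble large machines such as RNA polymerases. UXT is itself a prefoldin-like protein and is found with R2TP and URI. Many cytosolic chaperone genes are induced together by the transcription factor HSF1 when unfolded proteins accumulate.

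Most of these chaperone genes were higher in KO cells, and Fkbp2, Fkbp7, Vbp1 and Hspb2 were lower. The calls were 25 higher and 4 lower out of 29, at a limma adjusted p under 0.05 over all 3257 genes and at least a 1.5-fold change listed in the authors' deposited table. Over all its genes, 32.1% were called higher and 67.5% lower. The deposited table lists only genes that passed such a threshold on these same libraries, so nearly every gene in it is called and the calls are not independent evidence. The median log2 change listed in the authors' deposited table was 0.73 over the chaperone genes and -0.88 over all genes. After quantile normalization between libraries, which splits the calls of the whole table into 1047 higher and 1143 lower in place of 1044 and 2200, the chaperone genes had 25 higher and 2 lower. Quantile normalization and centring each library on its median used only the genes of the table, most of which were lower. They therefore raise KO values relative to WT values by construction, and which scaling is nearer the truth cannot be told here. After quantile normalization the limma differences of 8 of the 25 higher genes became more than 1.5 times larger. With each library centred on its median, those of 16 of the 25 did. Among the 4 lower genes, 2 became more than 1.5 times smaller after quantile normalization and 3 after centring.

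Folds were moderate. In the authors' deposited table, the 25 higher genes ranged from 1.505-fold to 4.36-fold, with a median of 1.74, and the median of all higher genes was 1.75. At least a 2-fold change was reached by 8 chaperone genes that were higher and 3 that were lower, against 9.27% and 44.2% of all genes. In all 25 higher genes the 3 KO values lay above the 3 WT values, which was so for 31.7% of all genes, and in all 4 lower genes they lay below, as in 65.8% of all genes. Such separation goes with nearly every call in this table and is not particular to the chaperone genes. Over all genes, KO values lay above in 1031, beside 1044 called higher, and below in 2144, beside 2200 called lower.

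**Figure D1:**
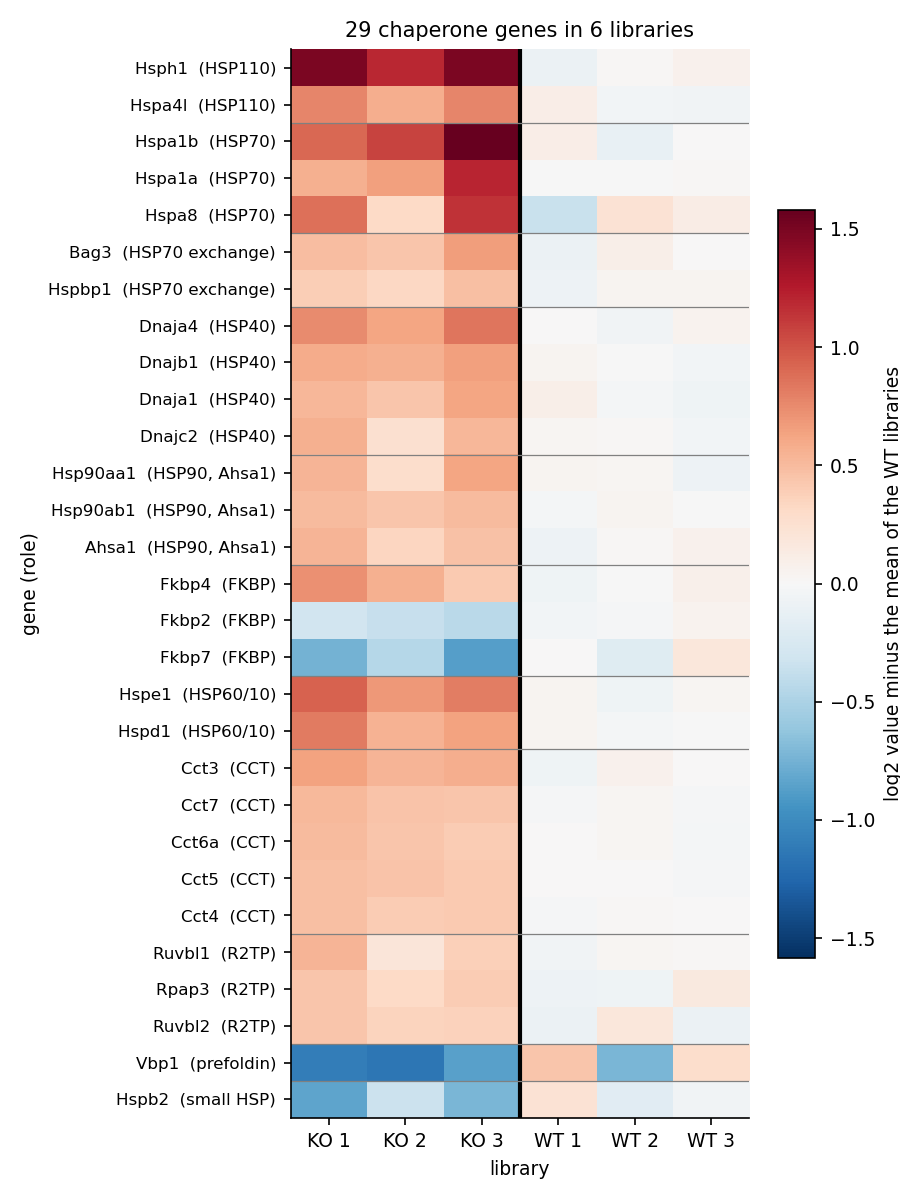
Log2 value of each of the 29 genes in each library minus the mean of its 3 WT libraries, with KO libraries left of WT libraries and genes grouped by role. The 25 higher genes are red in all 3 KO libraries, with Hsph1 and Hspa1b the darkest, and Fkbp2, Fkbp7, Vbp1 and Hspb2 are blue there.

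Values per library are the authors' normalized values on a log2 scale. Their transformation is not given in the sources used here, and the difference between group means came, for these genes, to 0.56 to 0.76 of the log2 change listed in the authors' deposited table. They are not scaled by gene length, so levels are not compared between genes. In bulk RNA, more cells of a type and more RNA per cell cannot be told apart. Nothing in the labels tells whether replicates stem from different animals or cultures, so p-values reflect the spread among the libraries at hand, which may be technical. Uxt was not in the deposited table, which lists only genes that passed a threshold of fold and p. A change of Uxt RNA past that threshold is therefore not seen here, and the knockout rests on the labels.

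Both HSP110 genes in the table rose. Hsph1, a heat-inducible exchange factor for HSP70, had values of 13.58, 13.28 and 13.57 in KO cells, against 11.99, 12.10 and 12.16 in WT cells. The lowest KO value lay 1.13 above the highest WT value, a gap wider than the spread within either group. The limma difference was 1.39 ± 0.10 (SE, n = 3 each, adjusted p = 7.48e-06) and the fold was 4.36 in the authors' deposited table. Hspa4l, a relative of Hsph1 known for its abundance in testis, had 11.12, 10.92 and 11.12 in KO cells, against 10.45, 10.31 and 10.29 in WT cells. The gap of 0.47 between its groups was also wider than the range within either (limma difference 0.70 ± 0.09, SE, n = 3 each, adjusted p = 1.26e-04), with a fold of 2.17 in the authors' deposited table. The third gene of this family, Hspa4, was not analysed here.

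The table held 3 HSP70 genes, and each was higher in KO cells. Hspa1b, one of the stress-induced HSP70 genes, had 12.19, 12.35 and 12.87 in KO cells, against 11.39, 11.17 and 11.29 in WT cells. KO replicate 3 stood highest and the groups did not overlap (limma difference 1.19 ± 0.16, SE, n = 3 each, adjusted p = 1.64e-04; 3.54-fold in the authors' deposited table). Hspa1a, its neighbour and near-copy, had 9.58, 9.67 and 10.22 in KO cells, against 9.01, 9.003 and 9.03 in WT cells. The WT libraries were nearly level, and KO replicate 3 was again the highest (limma difference 0.81 ± 0.15, SE, n = 3 each, adjusted p = 0.00105; 2.61-fold in the authors' deposited table). Of the 50-base words of the Hspa1a transcript, 58.8% also occur in Hspa1b, and 62.3% of those of Hspa1b occur in Hspa1a, so the split of reads between these genes is uncertain.

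The stretches of 250 bases upstream of these genes are shown because they carry the same pair of heat shock units and are nearly the same sequence, differing at 3 positions. They are from RefSeq, build GRCm38.p6, minus strand, at chr17:34972157-34972406 for Hspa1a and chr17:34959239-34959488 for Hspa1b, and are written 5′ to 3′ up to the base before the annotated start. The capitals mark a match to GAANNTTC, an inverted pair of the units from which HSF1 sites are built.
Hspa1a: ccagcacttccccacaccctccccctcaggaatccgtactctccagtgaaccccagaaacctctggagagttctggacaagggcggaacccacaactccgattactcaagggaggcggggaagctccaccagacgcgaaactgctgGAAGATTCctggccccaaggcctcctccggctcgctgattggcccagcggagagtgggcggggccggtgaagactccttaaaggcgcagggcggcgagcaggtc
Hspa1b: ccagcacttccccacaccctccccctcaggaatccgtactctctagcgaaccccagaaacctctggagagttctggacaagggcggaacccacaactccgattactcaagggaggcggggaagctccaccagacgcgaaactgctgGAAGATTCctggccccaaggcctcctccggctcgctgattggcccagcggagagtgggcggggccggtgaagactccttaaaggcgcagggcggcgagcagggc

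Hspa8, the constitutive HSC70 gene, was the least even of the higher genes. Its values were 14.60, 14.03 and 14.86 in KO cells, against 13.37, 13.95 and 13.84 in WT cells. KO replicate 2 lay only 0.08 above the highest WT library, less than the range within either group, which was 0.83 in KO and 0.58 in WT cells. The limma difference was 0.77 ± 0.21 (SE, n = 3 each, adjusted p = 0.00656), with a fold of 2.04 in the authors' deposited table. Leaving out 1 library at a time moved this difference between 0.59 and 1.01. Hspa5, the HSP70 of the endoplasmic reticulum, Hspa9, that of mitochondria, and Hspa2, that of germ cells, were not analysed here.

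The exchange factors Bag3 and Hspbp1 were higher by smaller amounts. Bag3, which couples HSP70 to selective autophagy, had 13.21, 13.16 and 13.38 in KO cells, against 12.63, 12.82 and 12.73 in WT cells. The groups were separate (limma difference 0.53 ± 0.09, SE, n = 3 each, adjusted p = 5.63e-04; 1.74-fold in the authors' deposited table). Hspbp1 had 10.57, 10.50 and 10.65 in KO cells, against 10.10, 10.22 and 10.22 in WT cells, a limma difference of 0.39 ± 0.08 (SE, n = 3 each, adjusted p = 0.00139) and a fold of 1.55 in the authors' deposited table.

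**Figure D2:**
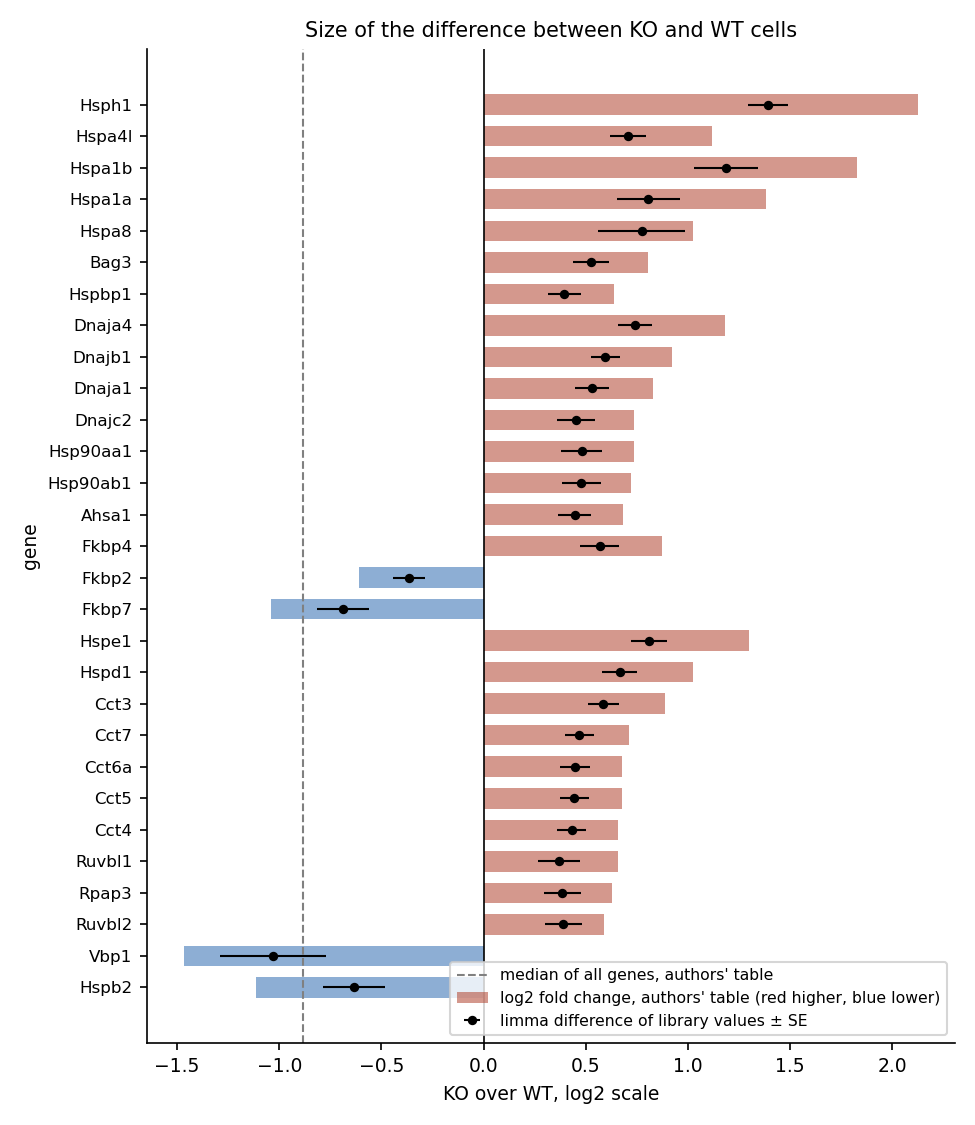
Bars give the log2 fold change of each gene, KO over WT, as listed in the authors' deposited table, and points the limma difference of the library values ± SE (3 KO and 3 WT libraries). Hsph1 has the longest bar, at 4.36-fold, while the dashed line marks the median of all genes, at -0.88.

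Of the J-domain genes, 4 were in the table and all 4 rose. Dnaja4, a type A J-protein, had 11.01, 10.89 and 11.11 in KO cells, against 10.27, 10.20 and 10.31 in WT cells. Its gap of 0.57 between the groups was wider than the spread in either (limma difference 0.74 ± 0.08, SE, n = 3 each, adjusted p = 7.30e-05; 2.27-fold in the authors' deposited table). Dnajb1, the classical heat-inducible HSP40, had 12.13, 12.11 and 12.20 in KO cells, against 11.60, 11.54 and 11.51 in WT cells. Replicates of this gene lay close together, with an SD of 0.05 in each group (limma difference 0.60 ± 0.07, SE, n = 3 each, adjusted p = 9.42e-05; 1.90-fold in the authors' deposited table). Dnaja1, a cytosolic partner of HSP70, had 11.47, 11.37 and 11.57 in KO cells, against 11.03, 10.91 and 10.88 in WT cells, and was 1.78-fold higher in the authors' deposited table (limma adjusted p = 3.74e-04). Dnajc2, the J-protein of the ribosome-associated complex, had 11.18, 10.87 and 11.14 in KO cells, against 10.64, 10.64 and 10.56 in WT cells, with KO replicate 2 nearest to WT. Its fold was 1.66 in the authors' deposited table (limma adjusted p = 0.00173). The other 41 annotated J-domain genes were not analysed here, so the family as a whole cannot be described.

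Both cytosolic HSP90 genes rose, as did the activator gene Ahsa1. Hsp90ab1, the constitutive form, had 17.14, 17.09 and 17.14 in KO cells, against 16.61, 16.69 and 16.64 in WT cells. Hsp90aa1, the inducible form, had 13.49, 13.23 and 13.57 in KO cells, against 13.00, 12.98 and 12.87 in WT cells. The limma difference was 0.48 for each of these genes, with an SE of 0.09 for Hsp90ab1 (n = 3 each, adjusted p = 0.00131) and 0.10 for Hsp90aa1 (n = 3 each, adjusted p = 0.00161). After quantile normalization the differences were 0.96 for Hsp90ab1, 0.74 for Hsp90aa1 and 0.68 for Ahsa1, which was 0.45 before it. With each library centred on its median they were 0.77 for Hsp90ab1, 0.78 for Hsp90aa1 and 0.74 for Ahsa1. Folds were 1.65 for Hsp90ab1 and 1.66 for Hsp90aa1 in the authors' deposited table, and their transcripts share no 50-base word. Ahsa1, which stimulates the ATPase of HSP90, had 12.79, 12.59 and 12.72 in KO cells, against 12.17, 12.27 and 12.32 in WT cells, and was 1.60-fold higher in the authors' deposited table (limma adjusted p = 8.62e-04). The HSP90 of the endoplasmic reticulum, Hsp90b1, was not analysed here.

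The FK506-binding genes went in opposite directions. Fkbp4, an HSP90 co-chaperone that promotes the activity of the androgen receptor, had 13.02, 12.85 and 12.70 in KO cells, against 12.22, 12.29 and 12.36 in WT cells. It rose with a limma difference of 0.57 ± 0.09 (SE, n = 3 each, adjusted p = 5.22e-04) and a fold of 1.83 in the authors' deposited table. Fkbp7, a peptidyl-prolyl isomerase of the endoplasmic reticulum, had 10.98, 11.28 and 10.86 in KO cells, against 11.74, 11.53 and 11.91 in WT cells. All KO values were lower, but the gap of 0.25 was narrower than the range within either group (limma difference -0.69 ± 0.13, SE, n = 3 each, adjusted p = 9.70e-04; 2.06-fold lower in the authors' deposited table). With each library centred on its median the difference of Fkbp7 was -0.39 (limma adjusted p = 0.0235). Fkbp2, also of the endoplasmic reticulum, had 9.64, 9.59 and 9.52 in KO cells, against 9.91, 9.93 and 10.01 in WT cells, and was 1.53-fold lower in the authors' deposited table (limma adjusted p = 0.00203). The call of Fkbp2 depended on the scaling between libraries, with a limma difference of -0.15 (adjusted p = 0.147) after quantile normalization and -0.07 (adjusted p = 0.503) with each library centred on its median. The other 12 annotated FKBP genes were not analysed here.

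The mitochondrial chaperonin pair rose together. Hspe1, the HSP10 lid, had 10.98, 10.72 and 10.85 in KO cells, against 10.08, 9.98 and 10.07 in WT cells. Hspd1, the HSP60 barrel, had 13.25, 12.98 and 13.07 in KO cells, against 12.48, 12.40 and 12.43 in WT cells. In both genes KO replicate 1 was the highest and KO replicate 2 the lowest of the KO libraries, and the groups were far apart relative to their spread. The limma difference was 0.81 ± 0.09 for Hspe1 (SE, n = 3 each, adjusted p = 6.08e-05) and 0.67 ± 0.09 for Hspd1 (SE, n = 3 each, adjusted p = 1.51e-04). In the authors' deposited table the folds were 2.46 for Hspe1 and 2.03 for Hspd1. These genes lie head to head on chromosome 1, Hspd1 from 55077833 to 55088243 and Hspe1 from 55088148 to 55091317 in GRCm38.p6, and share 112 exon bases on opposite strands. GENCODE names 5 pseudogenes of Hspd1 and 6 of Hspe1, to which reads may also be assigned.

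The cytosolic chaperonin genes rose within a narrow range. Of 10 annotated CCT genes, 5 were in the table and all 5 rose, by 1.58-fold to 1.85-fold in the authors' deposited table. Cct3 had 14.08, 13.99 and 14.02 in KO cells, against 13.37, 13.51 and 13.44 in WT cells. Its limma difference was 0.59 ± 0.08 (SE, n = 3 each, adjusted p = 1.55e-04), with a fold of 1.85 in the authors' deposited table. Cct7 had 14.24, 14.18 and 14.16 in KO cells, against 13.70, 13.76 and 13.71 in WT cells. Cct6a had 13.99, 13.92 and 13.88 in KO cells, against 13.48, 13.52 and 13.45 in WT cells. Cct5 had 14.03, 14.00 and 13.97 in KO cells, against 13.57, 13.56 and 13.55 in WT cells. In all 5 subunits the gap between the groups was wider than the range within either, and the SD was at most 0.06 in KO and 0.07 in WT cells. The limma differences of Cct4, Cct5, Cct6a and Cct7 lay between 0.43 and 0.47, each with an SE of 0.07 and the largest adjusted p at 5.11e-04. Tcp1, Cct2, Cct8, Cct6b and Cct8l1 were not analysed here, so it is not known from these data whether the complete ring rose.

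**Figure D3:**
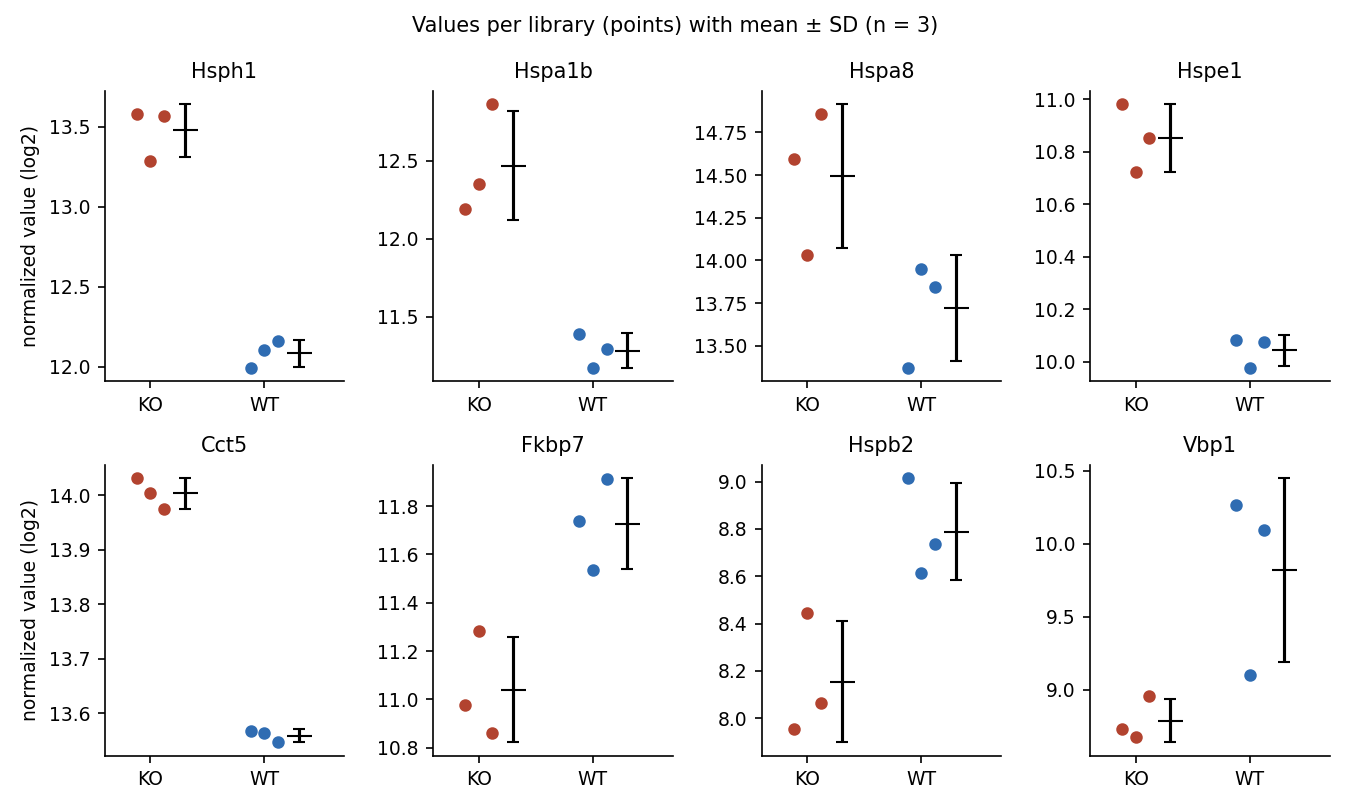
Normalized log2 value of 8 genes in each KO (left) and WT (right) library, with mean ± SD (n = 3 each) beside the points and a separate axis for each gene. Hsph1, Hspe1 and Cct5 are far apart between the groups, whereas Hspa8 nearly meets at KO replicate 2 and Vbp1 at WT replicate 2.

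The R2TP genes, whose products act beside UXT, had the smallest median fold, 1.55 in the authors' deposited table, of the role groups in which every gene of the table rose. Ruvbl1, an AAA+ ATPase, had 9.43, 9.09 and 9.27 in KO cells, against 8.84, 8.93 and 8.92 in WT cells. Ruvbl2, its partner ATPase, had 11.82, 11.73 and 11.74 in KO cells, against 11.29, 11.56 and 11.28 in WT cells. Rpap3, the HSP90-binding subunit, had 10.02, 9.91 and 9.99 in KO cells, against 9.50, 9.52 and 9.74 in WT cells. Each gene kept its groups apart, but in each the gap was narrower than the range within a group. The folds were 1.58 for Ruvbl1, 1.505 for Ruvbl2 and 1.55 for Rpap3 as listed in the authors' deposited table, with a limma adjusted p between 0.00303 and 0.00694. Pih1d1, the fourth R2TP gene, was not analysed here.

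Vbp1, which encodes a subunit of prefoldin, was the one member of the prefoldin and URI group in the table and it fell. Its values were 8.73, 8.68 and 8.96 in KO cells, against 10.27, 9.10 and 10.10 in WT cells. WT replicate 2 lay within 0.14 of the highest KO library and far below the other WT libraries, so that the SD was 0.15 in KO and 0.63 in WT cells (n = 3 each). The limma difference was -1.03 ± 0.26 (SE, n = 3 each, adjusted p = 0.00426), and the gene was 2.76-fold lower in the authors' deposited table. Leaving out 1 library at a time moved the difference between -1.39 and -0.81. The other 7 annotated genes of the group, namely Pfdn1, Pfdn2, Pfdn4, Pfdn5, Pfdn6, Uri1 and Pdrg1, were not analysed here.

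Hspb2, a small heat shock protein of muscle, also fell. It had 7.95, 8.44 and 8.07 in KO cells, against 9.02, 8.61 and 8.74 in WT cells, and the gap of 0.17 was narrower than the range in either group. The limma difference was -0.63 ± 0.15 (SE, n = 3 each, adjusted p = 0.00319), with a 2.16-fold lower level in the authors' deposited table. This call ended under other scalings, with a difference of -0.23 (limma adjusted p = 0.206) after quantile normalization and -0.34 (limma adjusted p = 0.0619) with each library centred on its median. Markers of myoid and smooth muscle cells moved the same way: 12 of the 18 listed were in the table and all 12 were lower, beside 67.5% of all genes. Their median log2 change was -1.22 in the authors' deposited table, beside -0.88 over all genes. Their summed linear normalized values were 382000 to 439000 in KO and 535000 to 667000 in WT libraries. The sum holds only markers that passed the threshold of the table, so a difference in it is partly fixed by that selection. The part of such cells in the fall of Hspb2 was not tested. Hspb2 shares 252 exon bases with Cryab on the opposite strand.

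Heat shock elements were looked for in the promoter windows that RefSeq gives for 23 of the 29 genes, from 250 bases before to 50 after each annotated start in GRCm38.p6. Cct4, Dnajc2, Hsp90aa1, Hsp90ab1, Hspa8 and Hspb2 had no entry. The motif GAANNTTC, which reads the same on both strands, occurred in 10 of the 20 higher genes that had a window (50%) and in 0 of the 3 lower ones. It occurred in 7.57% of all higher genes of the table and in 9.04% of all 27025 genes with a window. A run of 3 units, GAANNTTCNNGAA or its reverse complement TTCNNGAANNTTC, each of which contains both pairs of units, occurred in Hsph1, Hspd1 and Hspe1, that is 3 of 20 (15%), against 1.30% of all higher genes of the table and 0.662% of all genes with a window. The pair in the other orientation, TTCNNGAA, also the same on both strands, occurred in 5 of the 20 higher genes (25%) and in 1 of the 3 lower ones (33.3%), against 9.46% of all higher genes and 9.60% of all genes with a window. A match describes the letters and does not show binding.

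The matches of the genes not shown above are given with their surroundings, 5′ to 3′ on the strand of the gene, because several of the higher genes share them. The members were chosen as chaperone genes, many of which are induced by HSF1. The 95 annotated genes of these families outside the table were not scanned as a set. The shares above therefore cannot tell whether a match goes with the rise. Capitals mark GAANNTTC. The stretches of Hspd1 and Hspe1 are the same 30 bases of chromosome 1 (chr1:55088053-55088082) read on opposite strands, so this is a single site between the genes. It starts 84 bases before the annotated start of Hspe1. In Hsph1 (chr5:149636277-149636306) the match lies 20 bases past an annotated start.
Hsph1: tgcagattctgGAAAGTTCtcctcagtagg
Hspe1: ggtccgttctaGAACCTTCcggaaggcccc
Hspd1: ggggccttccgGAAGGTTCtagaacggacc
Dnaja1: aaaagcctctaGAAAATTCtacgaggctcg
Dnaja4, first: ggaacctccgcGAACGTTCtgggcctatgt
Dnaja4, second: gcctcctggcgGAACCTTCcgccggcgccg
Fkbp4: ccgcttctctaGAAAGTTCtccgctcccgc
Bag3: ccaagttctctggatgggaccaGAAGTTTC
Rpap3: gcgcgggagccGAACCTTCtgcgcacgctc
These stretches lie at chr4:40722333-40722362 for Dnaja1, chr9:54699458-54699487 and chr9:54699496-54699525 for Dnaja4, chr6:128438789-128438818 for Fkbp4, chr7:128523603-128523632 for Bag3 and chr15:97705852-97705881 for Rpap3. Genes with a match covered folds from 1.55 for Rpap3 to 4.36 for Hsph1 in the authors' deposited table. None of the 4 CCT genes with a window had GAANNTTC.

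The libraries did not contribute alike. KO replicate 2 was the lowest of the KO libraries in 19 of the 25 higher genes (76.0%) and the highest in 0, against 54.0% and 11.7% of all higher genes of the table. KO replicate 1 was the highest in 14 of the 25 (56.0%), against 30.3% of all higher genes. Relative to the WT mean, the median rise over the 25 genes was 0.54 in KO replicate 1, 0.44 in KO replicate 2 and 0.58 in KO replicate 3, on the log2 scale. In 19 of the 29 genes (65.5%) the gap between the groups was wider than the range within either, against 58.4% of all genes. The 10 others were Dnajc2, Fkbp7, Hsp90aa1, Hspa1a, Hspa8, Hspb2, Rpap3, Ruvbl1, Ruvbl2 and Vbp1.

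**Figure D4:**
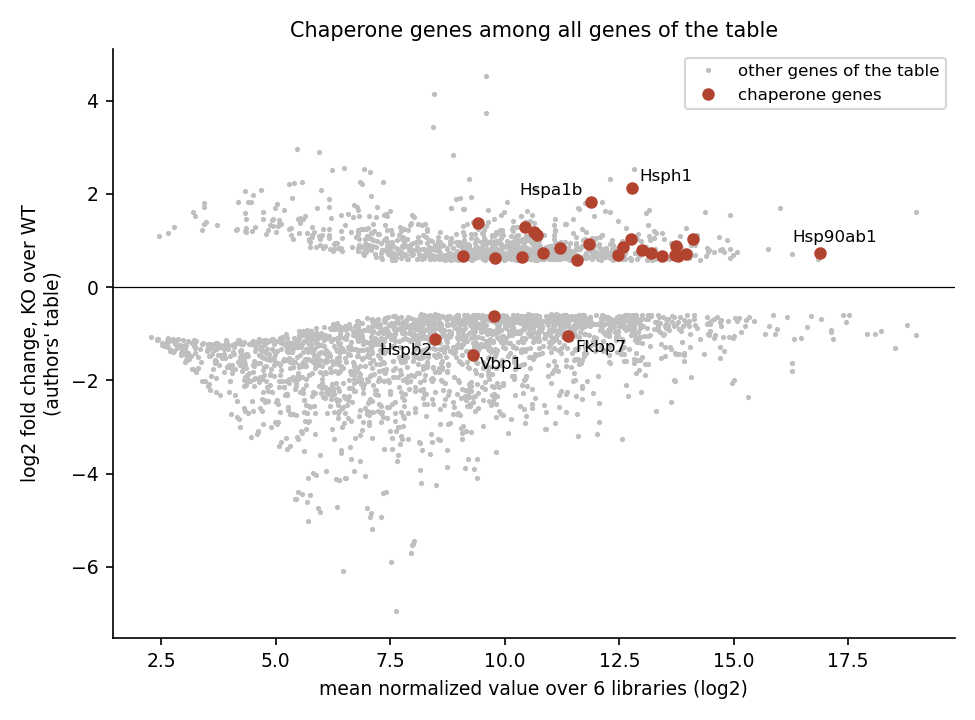
Log2 fold change, KO over WT, as listed in the authors' deposited table, against the mean normalized log2 value over the 6 libraries, for the 29 chaperone genes (red) and the other genes of the table (grey). The empty band around 0 is the authors' threshold of 1.5-fold, and 25 chaperone genes lie above it and 4 below, whereas 67.5% of all genes were called lower.

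Genes that work with these chaperones but have other symbols were taken from fixed lists. Of 44 further cofactors, 7 were in the table, 6 of them higher (85.7%, beside 32.1% of all genes) and 1 lower, at a median log2 change of 0.69 in the authors' deposited table, beside -0.88 over all genes. Ppid, an HSP90-bound cyclophilin, had 10.99, 10.82 and 10.85 in KO cells, against 10.27, 10.14 and 10.27 in WT cells, and was 2.07-fold higher in the authors' deposited table (limma adjusted p = 1.30e-04). Chordc1, an HSP90 co-chaperone, was 1.77-fold higher (limma adjusted p = 2.89e-04) and Ptges3, the p23 co-chaperone of HSP90, 1.65-fold higher (limma adjusted p = 7.53e-04) in the authors' deposited table. The gene of the list that fell was Serpinh1, the collagen chaperone of the endoplasmic reticulum, at 1.54-fold lower in the authors' deposited table (limma adjusted p = 0.00865), which was named after its value was seen. Of 22 partners of UXT and R2TP, 3 were in the table and all 3 were called higher, beside 32.1% of all genes. Their median log2 change was 0.67 in the authors' deposited table, beside -0.88 over all genes. Znhit6 and Nufip1, assembly factors of small nucleolar ribonucleoproteins, were at 1.67-fold and 1.59-fold there. Polr2a, the largest subunit of RNA polymerase II, was at 1.52-fold. The rest of that list was not analysed here, so the partners as a whole cannot be described.

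Of 44 proteasome and ubiquitin genes, 9 were in the table and all 9 were called higher, beside 32.1% of all genes, with a median log2 change of 0.64 in the authors' deposited table, beside -0.88 over all genes. The rest of that list was not analysed here. Sqstm1, the autophagy receptor p62, had 16.46, 16.33 and 16.90 in KO cells, against 15.37, 15.52 and 15.44 in WT cells, and was 3.25-fold higher in the authors' deposited table (limma adjusted p = 1.46e-04). Zfand2a, a heat- and arsenite-inducible proteasome regulator, was 1.85-fold higher and the catalytic subunit gene Psmb5 1.79-fold higher in the authors' deposited table (limma adjusted p = 0.00196 for Zfand2a and 0.00104 for Psmb5).

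As a whole list, genes of folding and stress in the endoplasmic reticulum stood near the background of the table. Of 44 listed, 10 were in it, 3 of them higher and 7 lower (70%, beside 67.5% of all genes), at a median log2 change of -0.84 in the authors' deposited table, beside -0.88 over all genes. Ero1l, the oxidase that drives disulfide formation, had 12.87, 12.96 and 12.94 in KO cells, against 14.12, 13.91 and 13.72 in WT cells, and was 2.86-fold lower in the authors' deposited table (limma adjusted p = 5.25e-05). Creld1 was 2.64-fold lower and Derl3, of the degradation channel, 2.496-fold lower in the authors' deposited table (limma adjusted p = 2.81e-05 for Creld1 and 0.00302 for Derl3). Fkbp2 and Fkbp7, 2 of the 4 chaperone genes that fell, encode proteins of the same compartment.

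As whole lists, client genes of the chaperonin and genes linked to HSF1 were also near the background, though few of them were in the table. Of 32 tubulin, actin and other client or assembly genes, 5 were in the table, 2 of them higher and 3 lower (60%, beside 67.5% of all genes), at a median log2 change of -1.01 in the authors' deposited table. Tubb4a had 8.27, 8.47 and 8.19 in KO cells, against 8.97, 9.50 and 8.96 in WT cells, and was 2.81-fold lower in the authors' deposited table (limma adjusted p = 8.94e-04). Tubb3 was 2.52-fold lower (limma adjusted p = 8.45e-04) and Acta2, smooth muscle actin and also a myoid marker, 2.01-fold lower (limma adjusted p = 0.00130) in the authors' deposited table. The 2 higher genes, named after their values were seen, were Tuba1c at 1.60-fold and Mkks at 1.51-fold there. Of 27 other genes linked to heat shock or HSF1 that are not chaperones, a list of mixed function, 11 were in the table, 4 of them higher and 7 lower (63.6%), at a median log2 change of -1.09 in the authors' deposited table. Fos, an immediate-early transcription factor, was 4.08-fold lower (limma adjusted p = 9.40e-06), Hmox1, heme oxygenase, 2.93-fold higher (limma adjusted p = 4.88e-04) and Nfatc2 2.79-fold lower (limma adjusted p = 0.00140) in the authors' deposited table. The other higher genes of this list were Dedd2 at 2.11-fold, Slc5a3 at 2.02-fold and Cacybp at 1.73-fold there. They were named after their values were seen. None of the 6 annotated genes with an Hsf symbol was analysed here.

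**Figure D5:**
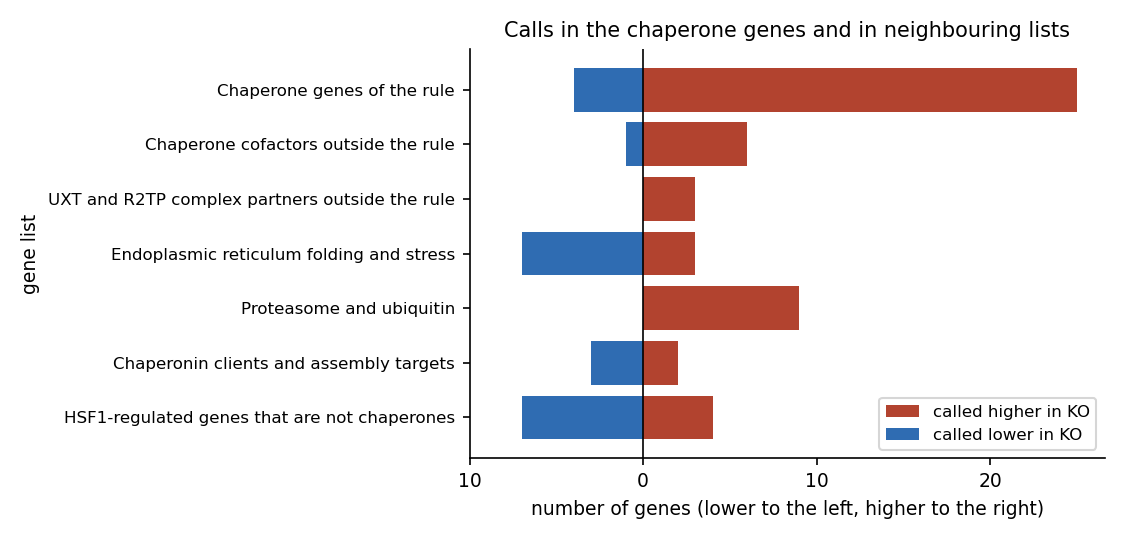
Number of genes called higher (right, red) and lower (left, blue) in KO cells among the 29 chaperone genes and in 6 further gene lists. Cofactors, UXT partners and proteasome genes were mostly or all higher, as were the chaperone genes (25 higher, 4 lower), beside 32.1% of all genes. Of 10 endoplasmic reticulum genes 7 were lower, where 67.5% of all genes of the table were.

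Cell type markers moved in the same libraries. Of 29 Sertoli markers 18 were in the table, and of 22 macrophage markers 21. Of 22 endothelial markers 18 were in it, and of 15 interstitial fibroblast markers 8. All of these were lower in KO cells, beside 67.5% of all genes. Of the 5 Leydig markers present, 4 were higher (80%), beside 32.1% of all genes. Of the 4 germ cell markers present, 3 were lower (75%), which is near the 67.5% of all genes. Only markers in the table enter the sums below, and the table holds only genes that changed. Differences in these sums are therefore partly fixed by that selection. Genes with high values dominate them, as Clu and Ctsl do for Sertoli cells, at WT means of 16.85 and 16.69 on the log2 scale. Eng and Cdh5, at WT means of 12.91 and 12.04, do so for endothelial cells. These genes were 1.85-fold and 1.73-fold lower in the authors' deposited table. Sertoli markers summed to 121000 to 145000 linear normalized units in KO and 239000 to 305000 in WT libraries. Macrophage markers summed to 12500 to 14700 in KO and 34500 to 44300 in WT libraries, and endothelial markers to 9320 to 10700 in KO and 16400 to 17700 in WT libraries. Median log2 changes in the authors' deposited table were -1.66 for Sertoli, -2.55 for macrophage and -3.42 for endothelial markers. That of all genes was -0.88. The sums show smaller changes than these marker medians. The limma difference was a median of 0.58 of the authors' log2 change over all genes, and as little as 0.08. A value above 0 on this scale does not show that RNA remained, because the transformation is not given. Leydig markers summed to 68800 to 86700 in KO and 49000 to 54400 in WT libraries, and germ cell markers to 4560 to 5430 in KO and 3220 to 4420 in WT libraries. The germ cell sum was mostly Uchl1, which gave 4440 to 5300 in KO and 2890 to 4090 in WT libraries, and the other 3 markers, Kit, Spaca1 and Sycp3, summed to 121 to 139 in KO and 328 to 337 in WT libraries. Fibroblast markers summed to 705000 to 1170000 in KO and 1470000 to 1630000 in WT libraries. The part of such shifts in the chaperone results was not tested. The median log2 value over all genes of the table lay between 8.82 and 8.91 in KO libraries and between 9.15 and 9.18 in WT libraries.

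Some values are uncertain because of the annotation. In all, 9 members share exon bases with a gene on the opposite strand, and whether strand was used in counting is not given in the sources used here. An overlap is with Wdr61 for Dnaja4, Smu1 for Dnaja1, Psph for Cct6a, Pradc1 for Cct7, Cryab for Hspb2, Gm20481 for Hspa1a, and Lhb and Gys1 for Ruvbl2, besides the Hspd1 and Hspe1 pair. Of these partners outside the 29 genes, Gys1 was in the table, at 1.75-fold lower in the authors' deposited table, opposite to Ruvbl2. The 29 genes lie on 15 chromosomes.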

How the data were processed

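RNA was sequenced from 3 UXT KO and 3 WT libraries, prepared with a TruSeq stranded mRNA kit, per the labels' protocols. Per the submitters' processing notes, STAR, DESeq2, FastQC and mm10 were used; versions, counting and the transformation are not given in the sources used here. In one table, the authors deposited log2 normalized values per library, a signed fold score with its log2 fold change, and p-values with adjusted p-values of their test. No counts were used, so depth is unknown. Of 3261 rows, 4 were left out because Efna1 and Hmga1 stood on 2 rows each, which left 3257 genes. The log2 values of all 6 libraries were fitted with limma 3.58.1 in R 4.3.3 (mean-variance trend, no covariate, Benjamini-Hochberg adjustment over 3257 genes). The fit was checked on simulated data. Fold sizes are the authors'; library values served for the spread and the test. Groups and replicate numbers come from the sample titles. All 29 members are named, and values per library are given for up to 4 members of each role with the largest fold and for all that fell. From other lists up to 3 genes with the largest fold are named, besides genes marked as named after their values were seen. The members and lists were chosen with earlier results of these data known. Sequences and coordinates are from RefSeq for GRCm38.p6, the build also called mm10, where all 29 members matched by gene ID; overlaps and pseudogenes are from GENCODE for the same build. Alternatives covered scaling, a filter on low values, the trend, a replicate block, each library left out and stricter thresholds.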

Additional observations from a re-analysis of the deposited data

How the results depend on the processing

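The 25 higher calls were unchanged in number under quantile normalization, median centring, a filter on mean values of at least 50, limma without trend, each library left out and an adjusted p under 0.01, and at a fold of at least 2 the number was 8. The adjustment ran only over genes already selected by fold and p on these libraries. That the calls held was therefore partly fixed by that selection. By the authors' own test the adjusted p of Hspa8 was 0.015, which is above 0.01. The 4 lower calls fell to 2 after quantile normalization and to 2 after median centring, where Fkbp2 and Hspb2 no longer passed, and at a fold of at least 2 there were 3. Quantile normalization raised the median of the differences of all genes by 0.33 and centring raised it by 0.30 on the log2 scale, and centring split all calls into 1047 higher and 1024 lower. Both act on a table of selected genes that were mostly lower, so this rise follows from the make-up of the table. With each library left out in turn, the counts stayed at 25 higher and 4 lower, the largest adjusted p of a member was 0.0284 (limma) and no difference moved by more than 1.35 times. With the replicate number as a block there were 25 higher and 4 lower members and no member's call changed. The deviations of same-numbered libraries correlated at 0.18, -0.07 and -0.004 across genes, and those of other combinations at -0.20 to 0.20. No pairing by number was seen, but with 3 libraries in each group these values cannot show that there is none. Depth is unknown, and genes outside the deposited table cannot be called unchanged.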
